A study of Mus musculus with 15 samples.

Results

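The genes described here make cholesterol and fatty acids, control that synthesis or move cholesterol out of the cell. The set lists 36 genes by symbol. A gene was measured where the array's annotation gives a probe set that 1 symbol alone. That held for 35 of the 36, of 18193 genes measured in all, and Acat2 was the exception. Each gene is represented by its brightest probe set over all arrays. Levels are log2 of the deposited intensity, so a difference of 1 means a doubling.

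Messenger RNA levels came from 15 Affymetrix arrays, each hybridised with RNA of acute myeloid leukemia (AML) cells from a mouse spleen. All of the leukemias carried NRASG12V, an oncogenic form of the signalling protein NRAS, together with the Mll-AF9 fusion gene, and they grew in SCID/Beige mice after injection through the tail vein. These hosts lack working lymphocytes, and they were allowed to reach full leukemia over 20 days, with white blood cells above 100000 per microlitre. RAS-OFF leukemias received doxycycline, which shuts off the NRASG12V transgene in this model, by injection into the abdomen at the start and then in drinking water until harvest at 48, 60, 72, 84 or 96 h, with 2 arrays per time and 10 in all. RAS-ON leukemias were vehicle-treated and taken at 0 h, with 5 arrays. There was no vehicle group at the later times, so loss of NRASG12V, doxycycline itself and the passing of time cannot be told apart. The sources used here do not give the promoter of the transgene, the number of primary leukemias behind the transplants or whether each replicate came from its own mouse. P-values therefore reflect only how far these samples vary, and that variation may be technical.

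Cells build cholesterol from acetyl-CoA through the mevalonate pathway, which leads by way of isoprenoids to squalene, lanosterol and then, in several trimming steps, to cholesterol. Most enzymes of this route and of fatty acid synthesis are activated by the SREBP transcription factors, which the escort protein SCAP carries out of the endoplasmic reticulum when sterols are scarce and which INSIG proteins hold back when sterols are plentiful. The liver X receptors (LXRs) answer to oxidised sterols instead and switch on genes that export cholesterol, such as Abca1 and Abcg1, as well as Srebf1 and Scd1.

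Nras read 10.62 ± 0.17 in RAS-OFF (SD, n = 10) and 10.94 ± 0.18 in RAS-ON (SD, n = 5), with overlapping ranges (limma change -0.31 ± 0.09 SE, adjusted p = 0.00725). The sources used here do not say whether its probe set detects the transgene. Median intensity was 150 to 157 on every array. The RAS-ON arrays fell into replicates 1 to 3 and replicates 4 and 5, with an SD of the log2 difference between arrays of 0.236 to 0.302 between the sets and 0.166 to 0.219 within them. The first 96 h array had a Gapdh 3-prime minus 5-prime difference of 1.22, a sign of RNA quality, against 0.0989 to 0.355 on the others. Of 8 myeloid markers of the labelled leukemia, 5 were lower in RAS-OFF, 1 was higher and 2 did not pass. Their summed intensity was 21491 to 31516 in RAS-OFF and 53030 to 63096 in RAS-ON. Ctsg, a granule protease of early myeloid cells, changed by -2.66 ± 0.10 and Mpo, a granule peroxidase of the same cells, by -1.32 ± 0.08, while Ptprc, the CD45 antigen of white blood cells, changed by 0.17 ± 0.06 (adjusted p = 0.0377). The blast markers Hoxa9 (-0.24, adjusted p = 0.0554) and Meis1 (0.08, adjusted p = 0.657) were the 2 that did not pass. Erythroid markers were higher for 10 of 10 genes, with sums of 74930 to 96550 in RAS-OFF and 28849 to 34761 in RAS-ON. Red pulp macrophage markers were higher for 10 and lower for 2 of 13 (sums of 20380 to 26586 in RAS-OFF and 13743 to 18935 in RAS-ON), and stromal and endothelial markers were higher for 8 and lower for 1 of 10 (sums of 19391 to 28606 in RAS-OFF and 17217 to 18347 in RAS-ON). None of 6 adipocyte markers passed the test (sums of 698 to 1022 in RAS-OFF and 823 to 1737 in RAS-ON). No marker was at 0 on any array, but neither was any of the 18193 genes, so this does not show that a marker was expressed. The adipocyte markers Adipoq, Cidec, Lep and Plin4 were dim, averaging 4.62, 4.27, 5.76 and 5.81, while Retn and Fabp4 averaged 8.03 and 9.05. For comparison with the marker counts, 28.7% of all genes were lower and 20.1% higher. In bulk samples, fewer cells of a type and less RNA per cell cannot be told apart, and the part of these cell types in the results below was not tested.

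The genes of cholesterol synthesis and fatty acid synthesis were mostly lower in RAS-OFF leukemias, while the cholesterol exporters were higher. Of the 35 genes, 20 were lower and 8 higher at an adjusted p below 0.05, and 7 did not pass. Over all genes the shares were 28.7% lower and 20.1% higher, against 57.1% lower and 22.9% higher for the set, so the share called higher was near that of all genes. The median change was -0.21 for the set and -0.04 for all genes. In 11 of the 35 every RAS-OFF array lay below every RAS-ON array, which held for 12.0% of all genes, and in 3 every RAS-OFF array lay above, which held for 9.36% of all genes. With only RAS-ON replicates 1 to 3, 19 genes were lower and 5 higher. With only RAS-ON replicates 4 and 5, 19 were lower and 7 higher. Without the first arrays of 48, 84 and 96 h, 20 were lower and 6 higher. The 12 genes whose call held under all 32 alternative settings were Hmgcs1, Mvd, Fdps, Cyp51, Dhcr7, Ebp, Srebf2, Insig1, Acly, Fasn, Elovl6 and Scd1, of which Scd1 alone was higher. Dhcr7, Ebp, Insig1 and Fasn have a single probe set, so the settings that average or swap probe sets could not alter their own values. The second probe sets of Fdps and Scd1 lay below the median of every array and changed by only -0.15 and 0.22. With the second brightest probe set, Lss, Sc5d, Msmo1, Acaca, Elovl1, Scap, Fdft1, Fads1, Abca1 and Abcg1 lost their calls. Scap also changed sign, to 0.14 (adjusted p = 0.254). For Scap, Abca1 and Abcg1 this was the one setting of the 32 that ended the call.

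**Figure D1:**
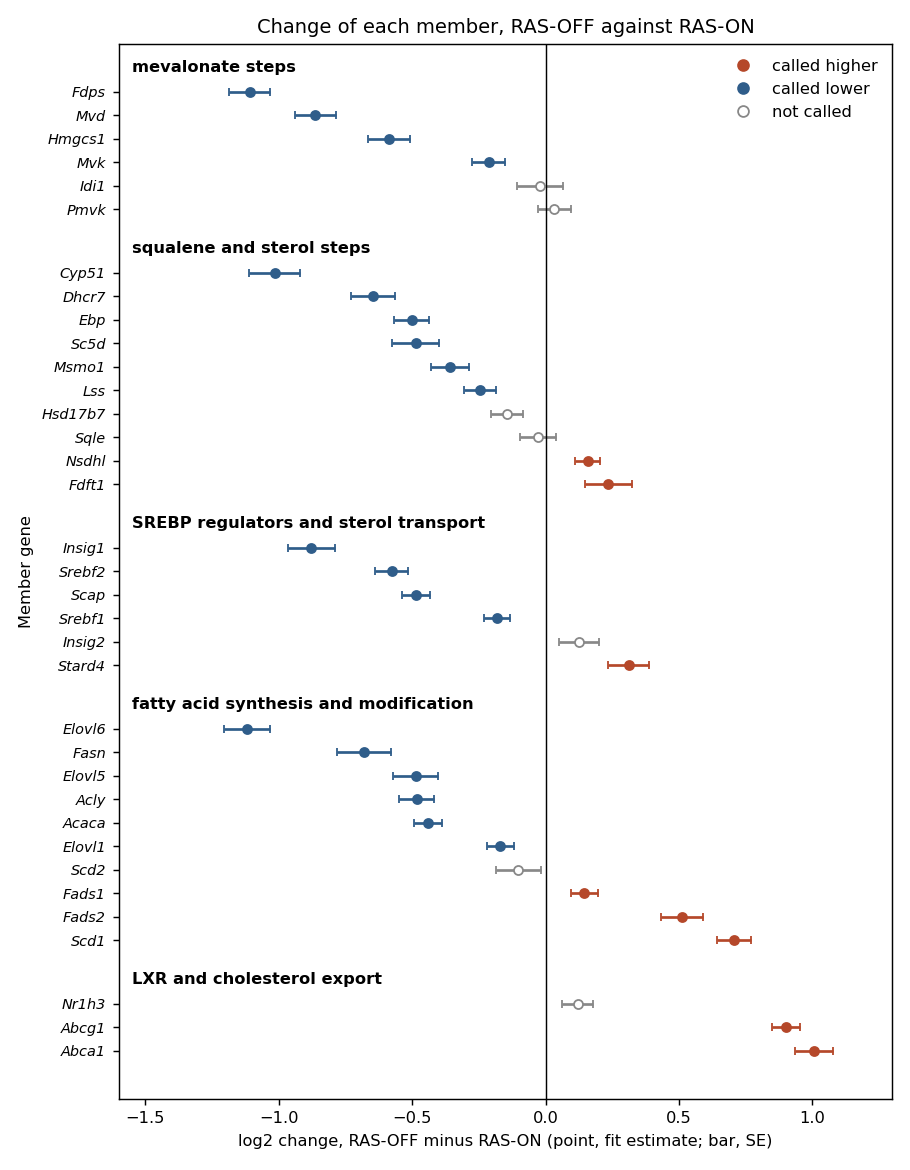
Change of each of the 35 genes in log2 units, RAS-OFF minus RAS-ON, as the limma estimate (point) with its SE (bar), sorted within roles; filled points passed the test and open points did not. Elovl6 (-1.12), Fdps (-1.11) and Cyp51 (-1.02) lie farthest to the left, and Abca1 (1.01) and Abcg1 (0.90) farthest to the right.

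The promoters of the most changed genes are shown because SREBPs and LXRs act on DNA near such starts, and they cover the 250 bases before the start of transcription. They are the 3 largest falls and the largest rise with an entry in the RefSeq promoter table of mouse assembly GRCm38.p6, which matched 27 of the 35 genes. Elovl6 lies at chr3:129532136-129532385 on the plus strand, Cyp51 at chr5:4104698-4104947 on the minus strand, Insig1 at chr5:28071162-28071411 on the plus strand and Abca1 at chr4:53159896-53160145 on the minus strand. Each is written 5′ to 3′ along the gene, with capitals for the motifs searched on both strands.
Elovl6: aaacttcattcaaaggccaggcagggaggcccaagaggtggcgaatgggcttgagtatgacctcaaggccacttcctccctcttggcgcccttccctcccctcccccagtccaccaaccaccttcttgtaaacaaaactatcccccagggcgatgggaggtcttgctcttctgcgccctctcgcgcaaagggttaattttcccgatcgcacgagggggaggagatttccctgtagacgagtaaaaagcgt
Cyp51: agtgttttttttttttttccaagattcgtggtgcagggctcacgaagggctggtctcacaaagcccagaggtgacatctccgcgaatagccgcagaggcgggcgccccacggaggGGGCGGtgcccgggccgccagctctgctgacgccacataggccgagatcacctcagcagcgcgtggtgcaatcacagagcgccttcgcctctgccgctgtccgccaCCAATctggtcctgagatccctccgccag
Insig1: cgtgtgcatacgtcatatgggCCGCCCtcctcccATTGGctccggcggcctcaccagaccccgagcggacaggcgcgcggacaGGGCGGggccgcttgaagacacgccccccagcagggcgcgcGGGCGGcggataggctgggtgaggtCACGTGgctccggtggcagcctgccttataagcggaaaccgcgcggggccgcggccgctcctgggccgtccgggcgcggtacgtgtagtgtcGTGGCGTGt
Abca1: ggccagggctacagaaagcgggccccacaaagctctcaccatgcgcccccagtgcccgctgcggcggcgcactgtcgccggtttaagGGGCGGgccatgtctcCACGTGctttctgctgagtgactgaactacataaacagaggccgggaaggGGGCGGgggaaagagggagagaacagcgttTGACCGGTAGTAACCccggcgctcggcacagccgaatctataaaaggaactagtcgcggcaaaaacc
The capitals mark 5 kinds of match. The sterol regulatory element (SRE) core was searched as CACNCCAC, the CCAAT box as CCAAT, the GC box as GGGCGG, the E-box as CACGTG and the LXR element DR4 as 2 copies of GGTNA whose starts lie 10 bases apart. In Insig1 an SRE core on the opposite strand lay 9 to 2 bases before the start, with a CCAAT box, 3 GC boxes and an E-box further upstream. In Abca1 a DR4 on the opposite strand lay 67 to 53 bases before the start, with 2 GC boxes and an E-box upstream of it. Cyp51 held a GC box and a CCAAT box, and these 250 bases of Elovl6 held none of the 5 motifs. Among the 27 promoters of the set, the SRE core was in 2 (Insig1 and Hmgcs1), the CCAAT box in 20, the GC box in 21, the E-box in 7 and the DR4 in 4 (Abca1, Elovl1, Srebf1 and Fasn). The DR4 was thus in 3 of 19 promoters of genes called lower and in 1 of 3 of genes called higher. Over all 27025 genes of the table, 6.05% held the SRE core, 37.5% the CCAAT box, 35.4% the GC box, 6.86% the E-box and 0.707% the DR4. A match is only a run of letters, and no binding was measured.

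**Figure D2:**
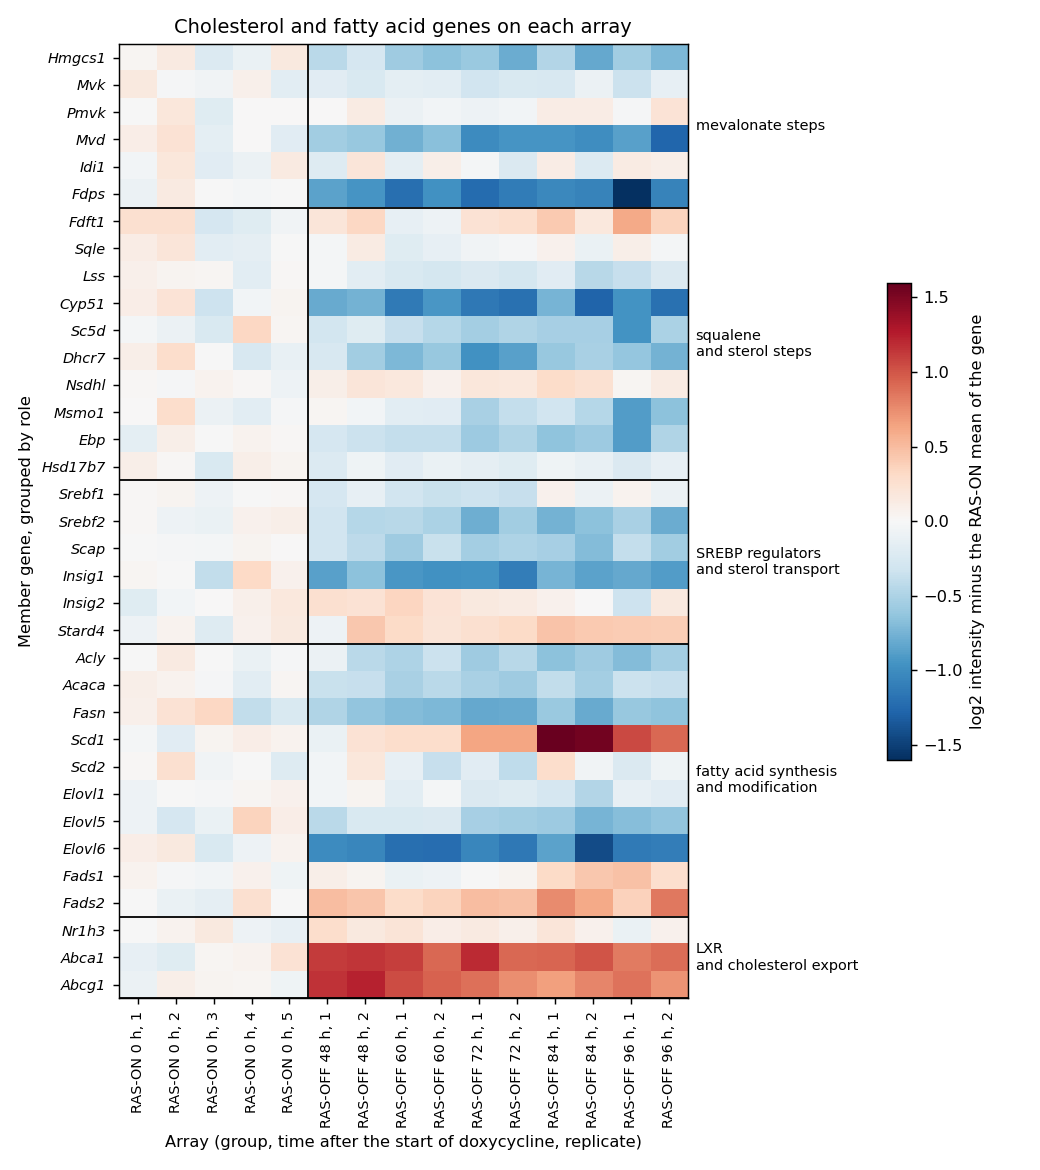
Log2 intensity of each of the 35 genes minus its RAS-ON mean (colour) on each of the 15 arrays, with RAS-ON at 0 h at the left end of the time axis and RAS-OFF times following. Fdps, Cyp51 and Elovl6 are below their RAS-ON mean on all 10 RAS-OFF arrays, and Abca1 and Abcg1 are above it on all 10.

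Of the 6 enzymes of the mevalonate steps, 4 were lower in RAS-OFF, none was higher and 2 did not pass, with a median change of -0.40. For this and the later counts by role, the shares over all genes were 28.7% lower and 20.1% higher. Fdps joins isoprenoid units into farnesyl diphosphate, the branch point to sterols and to protein prenylation. It read 8.91, 9.44 and 9.66 (lowest, median and highest) in RAS-OFF, against 10.42, 10.65, 10.50, 10.49 and 10.50 in RAS-ON. The groups stood well apart. Its change was -1.11 ± 0.08 (SE, limma), to 0.464 of the RAS-ON level (adjusted p = 2.18e-08).

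Mvd removes a carboxyl group from mevalonate diphosphate to make the first isoprenoid. It read 6.94, 7.31 and 7.65 in RAS-OFF, against 8.32, 8.44, 8.05, 8.21 and 8.03 in RAS-ON, again without overlap. The change of -0.86 ± 0.08 left Mvd at 0.55 of the RAS-ON level (adjusted p = 3.25e-07). Hmgcs1, the cytosolic synthase that makes HMG-CoA at the entry of the pathway, read 9.68, 9.92 and 10.23 in RAS-OFF, against 10.53, 10.64, 10.28, 10.40 and 10.65 in RAS-ON. The highest RAS-OFF array, at 48 h, lay just under the lowest RAS-ON array. Hmgcs1 changed by -0.59 ± 0.08 (adjusted p = 1.8e-05). Its promoter is the other one of the set with an SRE core, a motif in 2 of the 27 promoters and in 6.05% of all genes. A link between the motif and the change was not tested. Mvk, the kinase that phosphorylates mevalonate, changed less, by -0.21 ± 0.06 (adjusted p = 0.00876), and its call was lost with only RAS-ON replicates 4 and 5 (adjusted p = 0.11).

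The remaining pair of enzymes of these steps did not pass the test. Pmvk, the next kinase, differed by 0.03 with a 95% interval of -0.10 to 0.16 (adjusted p = 0.695). Idi1, which interconverts the isoprenoid isomers, differed by -0.02 with an interval of -0.21 to 0.16 (adjusted p = 0.86). Both intervals exclude a change as large as that of Fdps, Mvd or Hmgcs1.

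Among the 10 enzymes that make and process squalene and the sterols after it, 6 were lower, 2 were higher and 2 did not pass, with a median change of -0.30. Cyp51 is the demethylase that acts on lanosterol. Its level was 6.88, 7.12 and 7.42 in RAS-OFF, against 8.26, 8.39, 7.84, 8.12 and 8.21 in RAS-ON. All RAS-OFF arrays were below all RAS-ON arrays, and the change was -1.02 ± 0.10, to 0.495 of the RAS-ON level (adjusted p = 5.83e-07). The next Cyp51 probe set by brightness fell less, by -0.47 (adjusted p = 0.0092). Its dimmest, below the median of every array, did not pass (-0.08).

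Dhcr7 carries out the last reduction on the way to cholesterol. It read 7.88, 8.24 and 8.59 in RAS-OFF, against 8.95, 9.13, 8.84, 8.59 and 8.74 in RAS-ON. Of the 10 RAS-OFF arrays 9 lay below every RAS-ON array, and the first 48 h array reached the lowest of them. The change was -0.65 ± 0.08 (adjusted p = 9.97e-06). Ebp, an isomerase of the sterol ring, changed by -0.50 ± 0.06 without overlap between the groups (adjusted p = 1.42e-05). Sc5d, a desaturase of the same late stage, changed by -0.49 ± 0.09 (adjusted p = 0.000308), while its other probe sets did not pass (-0.07 and 0.02). Lss, which folds squalene epoxide into lanosterol, changed by -0.25 ± 0.06 (adjusted p = 0.00324), and this call was lost with only RAS-ON replicates 4 and 5 (adjusted p = 0.13).

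Msmo1, an oxidase that starts the removal of methyl groups from sterols, went lower as the hours passed. Its values were 9.38 and 9.31 at 48 h, 9.19 and 9.17 at 60 h, 8.84 and 8.97 at 72 h, 9.05 and 8.89 at 84 h, and 8.46 and 8.70 at 96 h. The RAS-ON arrays read 9.36, 9.64, 9.26, 9.18 and 9.34. The 48 h arrays thus lay within the RAS-ON range, while every array of 72 h and later lay below it. Its change over all times was -0.36 ± 0.07 (adjusted p = 0.000719).

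Not every sterol enzyme was lower. Sqle, which oxidises squalene, differed by -0.03 with a 95% interval of -0.17 to 0.12 (adjusted p = 0.76). Nsdhl, a dehydrogenase of sterol demethylation, was higher by 0.16 ± 0.05 (adjusted p = 0.0102), a call that was lost with only RAS-ON replicates 1 to 3 (adjusted p = 0.0504). Fdft1, squalene synthase, differed by 0.24 ± 0.09 (adjusted p = 0.0412), and its direction was not settled. The call held in 10 of 32 alternative settings, and the others that ended it included leaving out any 1 of 10 arrays: RAS-ON replicates 3, 4 or 5, the second 48 h array, either 60 h array, either 72 h array, the first 84 h array or the first 96 h array (0.17 to 0.24, adjusted p = 0.0577 to 0.125). A pair of dimmer Fdft1 probe sets was lower (-0.36 and -0.26). Hsd17b7, a ketone reductase of the same steps, changed by -0.14 ± 0.06 with an interval of -0.27 to -0.02 and missed the threshold (adjusted p = 0.0586). It passed without RAS-ON replicate 3 or without the second 48 h array (-0.20 to -0.16, adjusted p = 0.00402 to 0.0499), and its next probe sets by brightness were lower by more (-0.51 and -0.68, adjusted p = 7.51e-05 and 0.000487).

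Of the 6 regulators and sterol carriers, 4 were lower, 1 was higher and 1 did not pass, with a median change of -0.33. Insig1, which retains the SCAP and SREBP complex in the endoplasmic reticulum and is itself an SREBP target, read 8.62, 8.84 and 9.06 in RAS-OFF, against 9.75, 9.71, 9.32, 10.04 and 9.79 in RAS-ON. No RAS-OFF array reached the RAS-ON range. The change of Insig1 was -0.88 ± 0.09, to 0.544 of the RAS-ON level (adjusted p = 1.2e-06). Insig2, its relative with the same role, read 8.34, 8.83 and 9.02 in RAS-OFF, against 8.48, 8.63, 8.68, 8.75 and 8.84 in RAS-ON. The 48 and 60 h arrays were above every RAS-ON array and the first 96 h array was below every one. Insig2 differed by 0.13 ± 0.08 with a 95% interval of -0.04 to 0.29 (adjusted p = 0.191), and it passed without the first 96 h array (0.17, adjusted p = 0.0311).

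Srebf2 encodes SREBP2, the form that acts mainly on cholesterol genes. It read 9.06, 9.32 and 9.55 in RAS-OFF, against 9.87, 9.77, 9.75, 9.92 and 9.95 in RAS-ON. The groups did not overlap, and the change was -0.58 ± 0.06 (adjusted p = 2.24e-06). Srebf1, which encodes the SREBP1 forms that act mainly on fatty acid genes, read 9.25, 9.41 and 9.68 in RAS-OFF, against 9.63, 9.66, 9.54, 9.61 and 9.63 in RAS-ON. Its 8 lower RAS-OFF arrays lay below all of RAS-ON and the other two, the first arrays of 84 and 96 h, lay above. The change over all times was -0.18 ± 0.05 (adjusted p = 0.00683), and the call was lost when the RAS-OFF times were fitted as a single group (adjusted p = 0.0536).

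Scap, the escort protein, read 9.62, 9.80 and 10.01 in RAS-OFF, against 10.30, 10.30, 10.29, 10.36 and 10.32 in RAS-ON. The RAS-ON arrays were nearly identical and all lay above the RAS-OFF arrays, with a change of -0.49 ± 0.05 (adjusted p = 2.82e-06). Its dimmer probe set, below the median of every array, differed by 0.14 and did not pass. Stard4, a carrier of cholesterol between membranes, was higher by 0.31 ± 0.08 (adjusted p = 0.00428), a call lost with only RAS-ON replicates 4 and 5 (adjusted p = 0.143).

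Related genes of the set did not change equally. The difference of log2 intensities within an array was compared between groups by a two-sided exact permutation test for 4 pairs, over 3003 regroupings and with a smallest possible p of 0.000333. Insig1 minus Insig2 was 0.04 ± 0.24 in RAS-OFF and 1.05 ± 0.26 in RAS-ON, a difference of -1.0 (SD, exact p = 0.000333, the smallest possible, and 0.00133 after Benjamini-Hochberg over the 4 pairs). Srebf1 minus Srebf2 was 0.16 ± 0.27 in RAS-OFF and -0.24 ± 0.08 in RAS-ON, a difference of 0.39 (exact p = 0.00733, adjusted 0.00977). Scd1 minus Scd2 was -2.27 ± 0.55 in RAS-OFF and -3.08 ± 0.27 in RAS-ON, a difference of 0.81 (exact p = 0.0117, adjusted 0.0117). Fads1 minus Fads2 was 1.65 ± 0.19 in RAS-OFF and 2.01 ± 0.12 in RAS-ON, a difference of -0.37 (exact p = 0.00366, adjusted 0.00733). The level of a difference depends on the probes and only its shift between groups can be read. The pairs were chosen with earlier results of these data known.

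**Figure D3:**
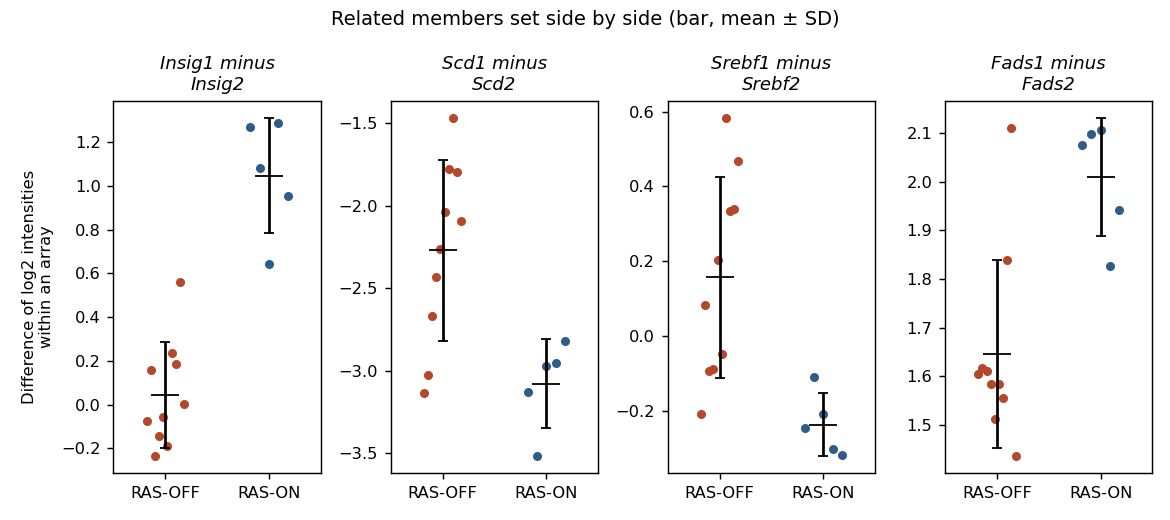
Difference of log2 intensities within each array for 4 pairs of related genes, in RAS-OFF (10 arrays, left) and RAS-ON (5 arrays, right), with mean and SD as bars. Insig1 minus Insig2 averages 0.04 in RAS-OFF and 1.05 in RAS-ON with no overlap, while the other pairs overlap.

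Of the 10 genes that make, lengthen or desaturate fatty acids, 6 were lower, 3 were higher and 1 did not pass, with a median change of -0.31. Within the set, Acly, Acaca and Fasn, which supply or build the saturated chain, were all lower. Fasn, the synthase itself, read 9.20, 9.36 and 9.54 in RAS-OFF, against 10.10, 10.25, 10.35, 9.63 and 9.78 in RAS-ON. RAS-ON replicates 4 and 5 were the lowest of their group and still above every RAS-OFF array. Fasn changed by -0.68 ± 0.10, to 0.624 of the RAS-ON level (adjusted p = 5.36e-05). Over the 32 alternative settings this change ran from -0.89 to -0.36. Acly, which supplies cytosolic acetyl-CoA from citrate, changed by -0.48 ± 0.06 (adjusted p = 2.05e-05). Acaca, a carboxylase that makes malonyl-CoA, changed by -0.44 ± 0.05 without overlap between the groups (adjusted p = 5.7e-06). Its dimmer probe set, below the median of every array, did not pass (-0.04, adjusted p = 0.678).

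The 3 elongases of the set were lower to different extents. Elovl6 lengthens palmitate to stearate and had the largest fall of the set. It read 7.84, 8.14 and 8.40 in RAS-OFF, against 9.37, 9.42, 9.02, 9.18 and 9.32 in RAS-ON. The 2 groups were separated at every time, and the change was -1.12 ± 0.09, to 0.46 of the RAS-ON level (adjusted p = 5.63e-08). Elovl5, which lengthens polyunsaturated chains, changed by -0.49 ± 0.08 (adjusted p = 0.000211). Elovl1, which makes very long saturated chains, changed by -0.17 ± 0.05 (adjusted p = 0.0114), and this call was lost with only RAS-ON replicates 1 to 3 (adjusted p = 0.0798) and without the 84 h arrays (adjusted p = 0.0666). Among the elongases outside the set, Elovl7 was higher by 0.74 ± 0.09 (adjusted p = 1.24e-05), and Elovl2, Elovl3 and Elovl4 did not pass; these were named after their values were seen.

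Of the 4 desaturases, 3 were higher and none was lower. Scd1 puts the first double bond into stearate and palmitate. Its values were 7.50 and 7.84 at 48 h, 7.89 and 7.89 at 60 h, 8.24 and 8.24 at 72 h, 9.18 and 9.15 at 84 h, and 8.66 and 8.52 at 96 h, and the RAS-ON arrays read 7.57, 7.42, 7.65, 7.72 and 7.66. All RAS-OFF arrays but the first of 48 h lay above every RAS-ON array. Scd1 rose by 0.71 ± 0.06 over all times, 1.63 times the RAS-ON level (adjusted p = 3.22e-07), and its dimmer probe set rose by 0.22. Scd2, a relative with the same activity, differed by -0.10 with a 95% interval of -0.28 to 0.08 (adjusted p = 0.333). Its dimmest probe set was higher, by 0.52 (adjusted p = 0.000796).

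Fads2, which makes the first desaturation of polyunsaturated fatty acids, read 8.54, 8.73 and 9.09 in RAS-OFF, against 8.24, 8.14, 8.11, 8.50 and 8.25 in RAS-ON. All RAS-OFF arrays lay above all RAS-ON arrays, the lowest of them, at 60 h, only just. Fads2 rose by 0.51 ± 0.08, 1.42 times the RAS-ON level (adjusted p = 7.99e-05). Fads1, the desaturase that acts after it, read 10.35 and 10.30 at 48 h, 10.15 and 10.18 at 60 h, 10.25 and 10.30 at 72 h, 10.56 and 10.69 at 84 h, and 10.73 and 10.53 at 96 h, while the RAS-ON arrays read 10.32, 10.24, 10.21, 10.33 and 10.19. The arrays of 84 and 96 h were above every RAS-ON array, and those of 60 h were below every one. Over all times Fads1 was higher by 0.15 ± 0.05 (adjusted p = 0.0261), and leaving out RAS-ON replicate 2, 3 or 5 or the second 84 h array ended the call (0.13 to 0.14, adjusted p = 0.0543 to 0.0694). The Fads1 call held in 19 of 32 alternative settings. It was also lost with only RAS-ON replicates 1 to 3 (adjusted p = 0.0585) or only 4 and 5 (adjusted p = 0.138). Leaving out the 84 h arrays (adjusted p = 0.191) or the 96 h arrays (adjusted p = 0.146) ended it too.

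The cholesterol exporters had the largest rises of the set. Of the 3 genes of this role, 2 were higher and 1 did not pass. Abca1, which loads cholesterol onto apolipoprotein A-I, read 10.76, 10.90 and 11.12 in RAS-OFF, against 9.79, 9.74, 9.96, 9.99 and 10.16 in RAS-ON. The groups were clearly apart, and the change was 1.01 ± 0.07, 2.01 times the RAS-ON level (adjusted p = 2.92e-08). The other two Abca1 probe sets lay below the median of every array and did not pass (0.09 and -0.06).

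Abcg1, which passes cholesterol to mature high-density lipoprotein, read 10.53 and 10.61 at 48 h, 10.42 and 10.33 at 60 h, 10.26 and 10.12 at 72 h, 10.03 and 10.15 at 84 h, and 10.24 and 10.09 at 96 h. RAS-ON arrays read 9.29, 9.48, 9.42, 9.40 and 9.30, so that the groups did not overlap and the highest values were the earliest. Abcg1 changed by 0.90 ± 0.05, 1.87 times the RAS-ON level (adjusted p = 3.62e-09), while its dimmer probe set did not pass (0.12, adjusted p = 0.273). Nr1h3 encodes LXR alpha. It read 6.97, 7.20 and 7.36 in RAS-OFF, against 7.07, 7.14, 7.24, 6.99 and 6.95 in RAS-ON, and the ranges overlapped. Its difference was 0.12 ± 0.06 with a 95% interval of 0.00 to 0.24 (adjusted p = 0.104), and it passed without RAS-ON replicate 3 (0.16, adjusted p = 0.0362). Macrophages express Abca1, Abcg1 and Nr1h3, and the red pulp macrophage markers given above were higher in RAS-OFF for 10 of 13 genes, whose part in the rise of the exporters was not tested.

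The harvests at 12 h intervals ask when the genes differ from RAS-ON, with the same 5 RAS-ON arrays behind every time. At 48 h, 12 of the 35 genes were lower and 3 higher, against 13.7% lower and 13.7% higher of all genes. At 60 h, 15 were lower and 3 higher (14.2% and 11.5% of all genes), and at 72 h, 20 were lower and 4 higher (18.3% and 13.4%). At 84 h, 18 were lower and 7 higher (21.8% and 15%), and at 96 h, 17 were lower and 7 higher (20.9% and 16.7%). The share of the set called lower was thus 34.3% at the first harvest and 57.1% at 72 h, above the share of all genes at each time, while the share called higher was 8.57% to 20.0%. The count at 48 h was 6 lower without the second 48 h array.

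**Figure D4:**
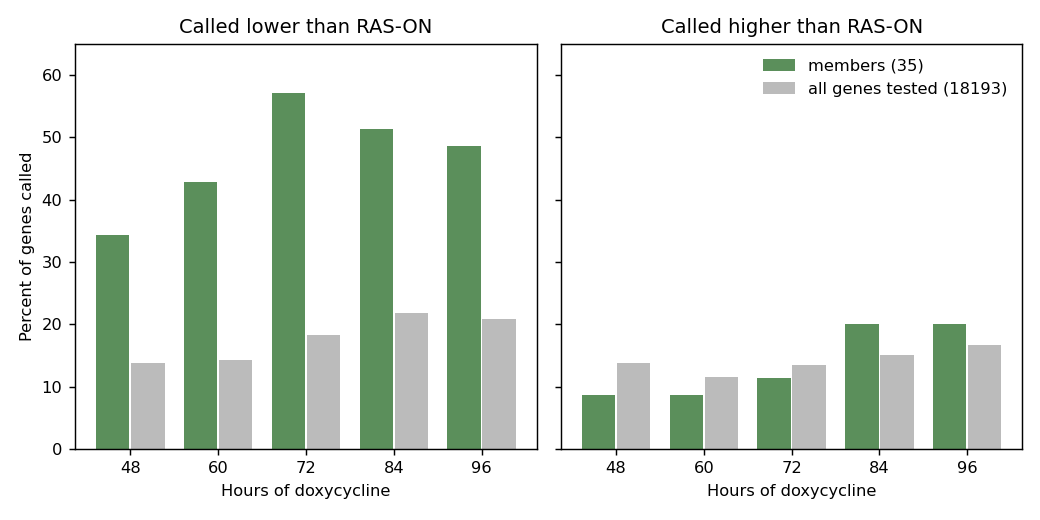
Percent of the 35 genes and of all 18193 genes tested that were called lower (left) or higher (right) than RAS-ON at each time of doxycycline. The 35 genes reach 57.1% lower at 72 h, against 18.3% of all genes, and 20.0% higher at 84 and 96 h, against 15% and 16.7%.

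The largest falls were already present at the first harvest. Fdps changed by -0.89, -1.09, -1.17, -1.05 and -1.34 at 48, 60, 72, 84 and 96 h. At 96 h it read 8.91 on the first array, the one with the high Gapdh difference, and 9.44 on the second. Elovl6 held a level difference of -1.02, -1.21, -1.10, -1.14 and -1.12 over the same times. Cyp51 gave -0.78, -1.03, -1.17, -1.01 and -1.08. These 3 genes passed the test at every time. Insig1 differed by -0.76, -0.95, -1.03, -0.80 and -0.85, and Srebf2 by -0.38, -0.48, -0.67, -0.71 and -0.66. The exporters were likewise high from the start, Abca1 by 1.13, 1.02, 1.05, 0.97 and 0.86 and Abcg1 by 1.20, 1.00, 0.81, 0.72 and 0.79.

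Between 48 and 96 h, 6 of the 35 genes had a falling and 3 a rising level by the least-squares slope per 12 h over the RAS-OFF times, against 8.75% falling and 5.00% rising of all genes. The slope is computed from the RAS-OFF means alone, while its error comes from the spread shared by all 15 arrays. Scd1 had the steepest rise at 0.31 ± 0.03 per 12 h (SE, limma, adjusted p = 3e-05). Against RAS-ON it changed by 0.07 at 48 h, where it did not pass, and by 0.28, 0.64, 1.56 and 0.99 at the later times, so the highest value was at 84 h. Fads1 rose by 0.11 ± 0.02 per 12 h (adjusted p = 0.00315), with differences of 0.07, -0.09 and 0.02 up to 72 h and 0.37 and 0.37 at 84 and 96 h. Srebf1 also rose within RAS-OFF, by 0.07 ± 0.02 per 12 h (adjusted p = 0.0342). It was lower than RAS-ON by -0.33 at 60 h and -0.35 at 72 h and differed by -0.01 and -0.02 at 84 and 96 h.

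Msmo1 had the steepest fall, -0.17 ± 0.03 per 12 h (adjusted p = 0.00124), with differences of -0.01, -0.17, -0.45, -0.38 and -0.77 against RAS-ON. Mvd followed at -0.12 ± 0.03 (adjusted p = 0.0184), with -0.58, -0.72, -0.98, -0.97 and -1.07. Elovl5, Abcg1, Ebp and Acly had slopes of -0.11, -0.11, -0.10 and -0.09. Of the 9 called slopes, that of Scd1 alone held under all 25 alternative settings, and the other 8 lost their call without the first arrays of 48, 84 and 96 h. Leaving out single arrays ended 5 of the slope calls. Mvd lost it without the first 48 h or the second 96 h array (adjusted p = 0.104 to 0.133), and Ebp without the first 48 h or the first 96 h array (adjusted p = 0.125 to 0.174). Srebf1 lost it without the first 48 h, either 60 h, the first 84 h or the first 96 h array (adjusted p = 0.0512 to 0.238), and Acly without the first 48 h, the second 60 h, the first 84 h or the first 96 h array (adjusted p = 0.0693 to 0.303). Elovl5 lost it without any 1 of the 10 RAS-OFF arrays or RAS-ON replicates 1 or 5 (adjusted p = 0.0517 to 0.184). The count of falling genes was 2 without the first 48 h array.

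**Figure D5:**
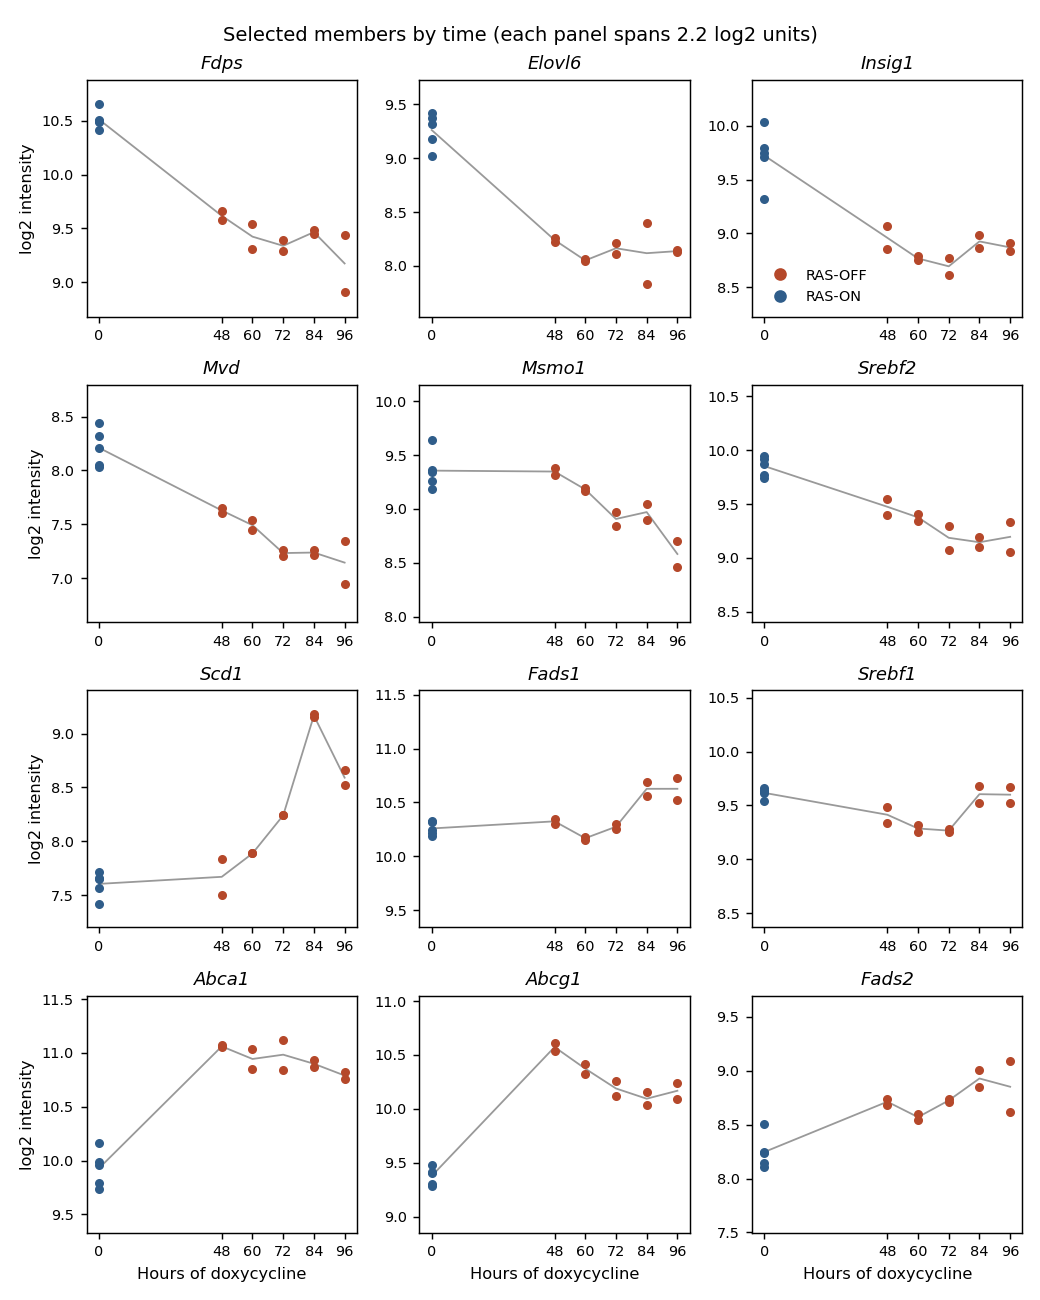
Log2 intensity of 12 genes on each array against hours of doxycycline, with RAS-ON at 0 h and RAS-OFF from 48 to 96 h; the line joins the means and every panel spans 2.2 log2 units. Scd1 climbs to 9.18 at 84 h. Msmo1 is lowest at 96 h, with 8.46 on the first array, which had the high Gapdh difference, and 8.70 on the second. Fdps and Elovl6 are below RAS-ON at every time.

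Other genes of the sterol pathway that are outside the set moved in both directions. Of 23 measured, 10 were lower, 6 were higher and 7 did not pass, with a median change of -0.11. Over all genes 28.7% were lower and 20.1% higher. Tmem97, a membrane protein that binds the cholesterol carrier NPC1 in human cells, changed by -1.0 ± 0.10 (adjusted p = 1.32e-06). Mbtps2, the protease that makes the final cut releasing SREBPs, changed by -0.50 ± 0.08 (adjusted p = 0.000136), and Npc2, which moves cholesterol inside lysosomes, by -0.49 ± 0.06 (adjusted p = 1.4e-05). Among the rises, Mylip, an LXR target that marks the LDL receptor for breakdown, changed by 0.87 ± 0.05 (adjusted p = 2.23e-09). Cyp27a1, which oxidises the side chain of cholesterol, changed by 0.58 ± 0.11 (adjusted p = 0.000644), and Ggps1, which makes the geranylgeranyl diphosphate used in protein prenylation, by 0.44 ± 0.07 (adjusted p = 5.85e-05).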

How the data were processed

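Per the labels' protocols, Qiagen-extracted RNA was amplified and biotin-labelled. The deposited table holds 1 intensity per probe set and array on a linear scale, which the authors obtained with RMA according to the submitters' processing notes. The sources used here do not give its version or settings. RMA gives all arrays similar distributions, which would hide a shift shared by most genes. From the deposited intensities log2 values were computed here. Of 45101 probe sets, 34945 had 1 gene symbol in the platform annotation, 932 had several and 64 were controls. Each of 18193 genes was represented by its brightest single-symbol probe set, with no filter on dim genes; 9010 genes had more than 1.

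A limma fit (limma 3.58.1, R 4.3.3) gave each group its own mean and all groups a shared spread, with contrasts for the averaged 5 RAS-OFF means minus RAS-ON, each time minus RAS-ON and the slope per 12 h within RAS-OFF. P-values were two-sided and adjusted by Benjamini-Hochberg over all 18193 genes, with a threshold of 0.05. Errors are standard errors of the fit unless called SD. The code was tested on simulated data. Arrays of a group correlated at 0.99 to 0.998, and precision is limited by the number of arrays.

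The genes of the set, the gene lists and the pairs were chosen with earlier results of these data known. Values by array (for RAS-OFF often the lowest, median and highest) are given for the 8 largest falls and 4 largest rises called, the SREBP and LXR regulators and exporters, and the 2 steepest slopes in each direction; of other lists, up to 3 called genes per direction are named. Alternatives were leaving out the dimmest 40% of genes, the mean or the second brightest of a gene's probe sets, centred arrays, trend and robust eBayes, array weights, a replicate block, a minimum change of 0.3 (0.1 per 12 h), 2 groups only, and each array or time left out. Only RAS-ON replicates 1 to 3, only replicates 4 and 5, and leaving out the first arrays of 48, 84 and 96 h were added after seeing the data.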

Additional observations from a re-analysis of the deposited data

Results flagged for a closer look

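In Lss, RAS-ON replicate 4 read 8.47 and stood apart below the other 4 RAS-ON arrays, and in Hsd17b7, RAS-ON replicate 3 read 8.47 and did the same. All 35 genes were screened for the gap between the lowest or highest RAS-ON array and the next. Chance sets apart about 1 in 20 groups by this measure, so a few such arrays can arise by chance alone.

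The change against RAS-ON differed between harvest times in 9 genes, by the limma slope per 12 h over the RAS-OFF times. It was -0.12 for Mvd, -0.17 for Msmo1, -0.10 for Ebp, -0.09 for Acly, -0.11 for Elovl5 and -0.11 for Abcg1. It was 0.31 for Scd1, 0.11 for Fads1 and 0.07 for Srebf1.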

How the results depend on the processing

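Of 406 counts and medians recomputed under the alternatives, 376 stayed within their limit. The limit was 1.5 times for a count. For the median change it was 1 SD, across the RAS-ON arrays, of the median level of the genes. With a minimum change of 0.3 (0.1 per 12 h), 12 genes were lower and 3 higher over all times, 4, 5, 10 and 11 were lower at 48, 60, 72 and 84 h, 4 were higher at 84 h and 3 at 96 h, and 0 were falling (1 at an unadjusted p below 0.05) and 1 rising by limma. With the second brightest probe set, often a dim one, 4 genes were higher over all times, and 1, 0 (1 unadjusted), 1, 4 and 4 at 48, 60, 72, 84 and 96 h, and the median change was -0.08. The mean of the probe sets gave 10 falling genes, centred arrays gave 3, and array weights gave 5 higher at 60 h. Deviations from the group means correlated at -0.237 to 0.217 between same-numbered arrays, with 5 of 30 above 0.1. With 2 arrays per RAS-OFF time the deviations of a time mirror each other, so many of these values repeat. Whether the numbers pair the samples was therefore not settled. With the replicate block 20 genes were lower, 19 of them shared with the fit without it, and 5 were higher. With only RAS-ON replicates 1 to 3, 5 genes were higher over all times and 5 at 60 h. Without the first arrays of 48, 84 and 96 h, 4 were higher at 96 h, 0 were falling (8 unadjusted) and 1 rising. Leaving out single arrays gave 20 to 21 lower and 6 to 8 higher genes over all times, 6 to 13 lower at 48 h, 2 to 5 higher at 60 h (5 without either 96 h array), and 2 to 8 falling.

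Sign changes were limited to genes with small changes and to Scap, and their cause was not tested. Scap was 0.14 with its second probe set. Fdft1 was -0.08 with the mean of its probe sets and -0.02 with the replicate block. Idi1 was 0.08 with the mean of its probe sets, 0.18 with the second, 0.00 with centred arrays, 0.01 without the 72 h arrays and -0.07 to 0.02 without single arrays. Pmvk was -0.06 with the replicate block and -0.02 to 0.08 without single arrays. Sqle was 0.01 without the 60 h arrays, 0.05 with only RAS-ON replicates 4 and 5 and -0.07 to 0.02 without single arrays. Scd2 was 0.08 with the mean of its probe sets and 0.00 with only RAS-ON replicates 4 and 5. Of the RAS-OFF minus RAS-ON changes of single genes under the alternatives, 1025 kept their direction and call and 20 changed sign. Without a change of sign, 60 lost the call and 14 gained it.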

Other observations

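Other genes of fatty acid metabolism, outside the set, were higher more often than lower in RAS-OFF. Of 35 measured, 14 were higher, 7 were lower and 14 did not pass, with a median change of 0.03. Over all genes 20.1% were higher and 28.7% lower. Acsl6, which activates long-chain fatty acids, changed by 1.13 ± 0.09 (SE, limma, adjusted p = 6.72e-08), Fads3, a relative of the desaturases Fads1 and Fads2, by 1.06 ± 0.05 (adjusted p = 7.79e-10), and Acss2, which makes acetyl-CoA from acetate, by 0.81 ± 0.07 (adjusted p = 1.75e-07). Hsd17b12, the reductase that works with the ELOVL elongases, had a larger fall than any gene of the set, -1.41 ± 0.06 (adjusted p = 1.33e-10). Scd3, another stearoyl-CoA desaturase, changed by -0.49 ± 0.12 (adjusted p = 0.00352), and Agpat2, an acyltransferase of phospholipid and triglyceride synthesis, by -0.34 ± 0.11 (adjusted p = 0.0188).

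Of 10 measured genes of fatty acid oxidation, 4 were lower, none was higher and 6 did not pass, with a median change of -0.02. The shares over all genes were 28.7% lower and 20.1% higher. Cpt1a, which admits long-chain fatty acids to mitochondria, changed by -0.70 ± 0.09 (adjusted p = 1.06e-05), Acadl, a long-chain dehydrogenase, by -0.39 ± 0.10 (adjusted p = 0.00591), and Hadha, a subunit of the trifunctional protein, by -0.33 ± 0.07 (adjusted p = 0.00186). Both lists were chosen with earlier results of these data known.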
